A study of Mus musculus with 8 samples.

Results

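In single basal and luminal cells of the pubertal mouse mammary gland, 9 adhesion and cell surface genes were measured: the integrin subunits Itga6, Itgb1, Itgb4, Itga2 and Itga3, the surface glycoproteins Cd24a and Cd44, and the hemidesmosome genes Dst and Col17a1. They are 9 of 14883 gene lines of the table, taken from it by symbol. Ducts and their terminal end buds, where growth takes place, had been dissected from glands 4 and 5 of mice 5 weeks old, and live cells had been sorted into plates and read by SORT-seq, which counts transcript molecules at their 3′ ends. The labels name 8 libraries of 96 wells, 4 on plate 2 and 4 on plate 1, and give the strain as mixed. They give no gate, antibody, tissue piece or animal for any library, so it is not given in the sources used here whether ITGA6 or CD24 protein was used to sort these cells. What the p-values measure is thus the scatter among libraries, and that scatter may be technical. In the edgeR tests below, it is estimated partly from all genes together.

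Of 768 wells, 114 passed as cells, with 1500 transcripts or more and 500 genes or more. A kept cell was classed as basal where Acta2, Tagln and Myl9 together exceeded Krt8, Krt18 and Krt19, and as luminal in the reverse case. Luminal cells with more Prlr, the prolactin receptor, than Trf, transferrin, were classed as hormone-sensing and the others as secretory. The classes held 66 basal cells and 42 luminal cells, the luminal ones being 14 hormone-sensing and 28 secretory cells. Another 6 cells, with 0 transcripts in both sums, stayed unassigned. In no classed cell was the larger sum under 2 times the smaller one, and 1 secretory cell had equal Prlr and Trf. That margin says little for the 8 basal and 8 luminal cells with under 10 transcripts of the 6 basal and luminal class genes. Some of these were classed on 1 transcript against 0. None of the 9 genes entered these rules.

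Integrins are pairs of an alpha and a beta chain that hold cells to the matrix around them. The alpha 6 chain pairs with beta 1 or with beta 4, and alpha 6 beta 4 is the laminin receptor at the core of the hemidesmosome, the button that ties the keratin filaments of a basal epithelial cell to the basement membrane. Dst encodes dystonin, whose epithelial form (BPAG1e) links that receptor to keratin, and Col17a1 encodes the transmembrane collagen of the same structure. In the mouse mammary gland, antibodies to the alpha 6 and beta 1 chains and to CD24 are widely used to sort basal cells, which carry more of the integrins and less CD24 on their surface, from luminal cells.

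The promoters of a pair of the genes are shown because their levels lay at opposite ends, Col17a1 with transcripts in basal cells and none in luminal cells, and Itgb1 with transcripts in most cells of both classes. Each run covers 250 bases before to 50 bases after the start of the gene, 5′ to 3′ along the gene, from RefSeq on GRCm38.p6, the build the submitters' notes call mm10. Capitals mark TATAAA, searched on both strands. Windows of this kind were found for 6 of the 9 genes, and none was at hand for Itga6, Itgb4 and Cd24a.
Col17a1, chr19:47691993-47692292, minus strand: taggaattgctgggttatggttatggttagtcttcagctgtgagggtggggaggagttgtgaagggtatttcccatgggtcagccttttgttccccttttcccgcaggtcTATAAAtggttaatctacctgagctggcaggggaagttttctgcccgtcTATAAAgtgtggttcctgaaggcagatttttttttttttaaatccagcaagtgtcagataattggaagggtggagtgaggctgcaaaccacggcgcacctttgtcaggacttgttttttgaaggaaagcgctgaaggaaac
Itgb1, chr8:128685404-128685703, plus strand: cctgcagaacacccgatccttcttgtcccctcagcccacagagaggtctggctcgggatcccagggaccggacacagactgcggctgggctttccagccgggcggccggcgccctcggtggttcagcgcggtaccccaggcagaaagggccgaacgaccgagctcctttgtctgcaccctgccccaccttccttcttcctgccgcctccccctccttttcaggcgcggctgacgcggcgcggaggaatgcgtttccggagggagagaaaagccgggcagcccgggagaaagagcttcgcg
TATAAA occurred 2 times in the Col17a1 window, beginning 140 and 91 bases before the start, and 0 times in the Itgb1 window. It occurs in 13.6% of 32841 promoter windows. The Itgb1 window was 67.3% G and C and the Col17a1 window 46.3%, with a median of 52.7% over all windows. TGANTCA, the core of AP-1 sites, occurs in 7.81% of windows and had 0 matches in either.

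Basal cells had a median of 13450.5 transcripts and luminal cells 9508, hormone-sensing cells 17924 and secretory cells 7102.5. The basal marker list holds the 3 genes of the class rule, so only its other 7 genes are summed here: they ran from 11.3 to 37.3 per 10000 transcripts in the 4 basal library sums and from 0.208 to 0.594 in the 4 luminal ones, where Krt5, Krt14, Krt17 and Trp63 had 0 transcripts. Basal cells came from libraries 2 and 4 and luminal cells from libraries 1 and 3 on both plates, apart from 1 basal cell in plate 2 library 1 and 1 in plate 1 library 3, so the effects of class and of library cannot be told apart. Plate 1 was thin in basal cells, with 8 in library 2 and 7 in library 4, against 31 and 18 on plate 2. In 8 basal cells and 1 luminal cell the marker list of another cell type outweighed all epithelial lists, and 5 of those basal cells were among the 8 of plate 1 library 2. There, 4 were led by the adipocyte list, with 10 to 42 transcripts of the endothelial list beside it, and 1 by the fibroblast list, with 72 transcripts of the nerve or Schwann list. The adipocyte list reached 31.0 per 10000 in that library and as little as 0.0568 in another basal library. The basal over luminal results of the 9 genes and of the gene lists are given with and without this library.

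Between basal and luminal cells, 3 of the 9 genes passed the test: Itga6 and Itgb1 were higher and Cd24a was lower in basal cells. Transcripts were summed per library and class, giving 4 sums each, and tested with edgeR's quasi-likelihood test at a Benjamini-Hochberg adjusted p under 0.05 over all 3412 genes tested. Of those genes, 14.6% passed, 8.0% (273 genes) higher and 6.57% (224 genes) lower in basal cells. Itga2 and Col17a1 fell under the filter on low counts, so 7 of the 9 were tested. Levels are given as transcripts per 10000 of the sum. Where basal and luminal sums are said below not to overlap, this describes the gene only. How many of all genes tested have sums that do not overlap was not counted.

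**Figure D1:**
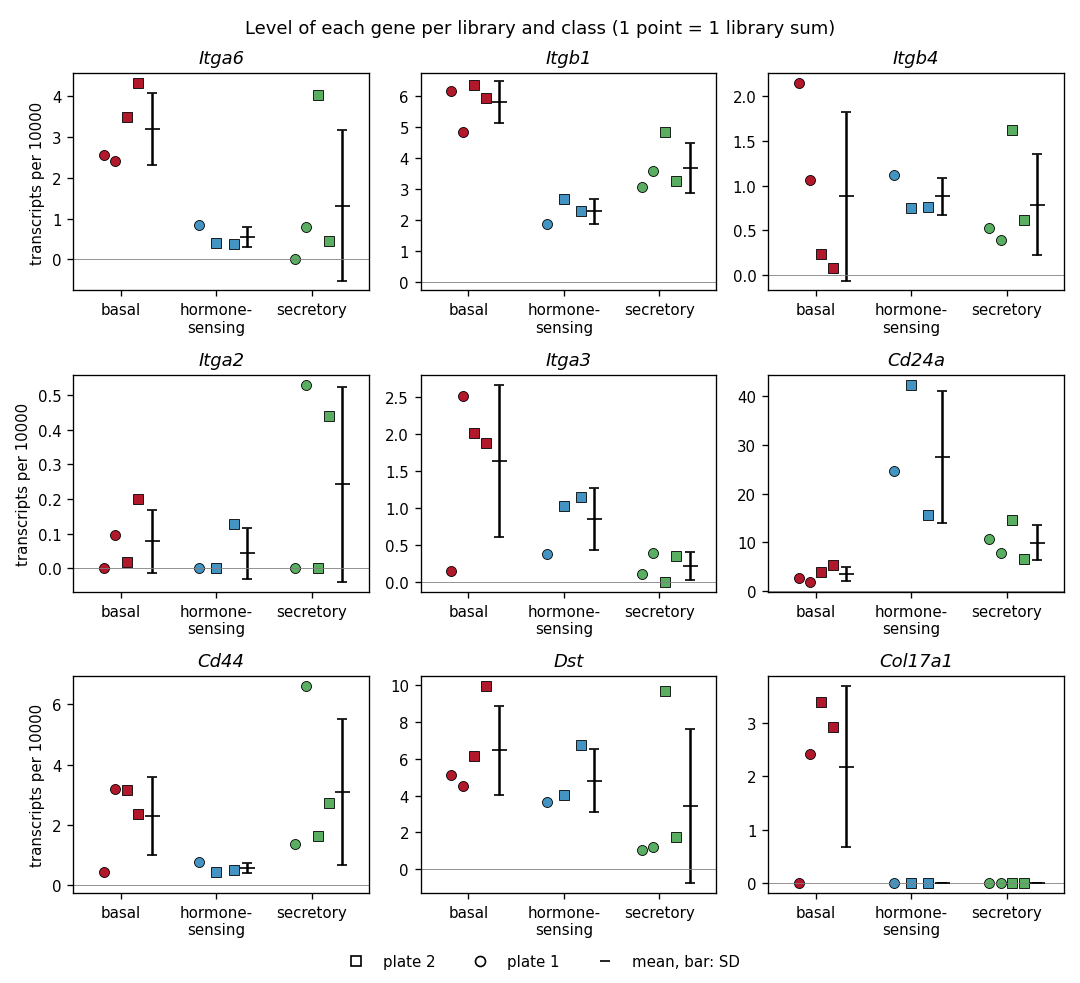
Level of each of the 9 genes, in transcripts per 10000, in every library sum of basal, hormone-sensing and secretory cells (squares plate 2, circles plate 1; bars, mean and SD over libraries). Itga6 stood at 2.41 or more in all 4 basal sums, Cd24a was highest in hormone-sensing sums, and Col17a1 was at 0 in every luminal sum.

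Itga6, the alpha 6 chain (chr2:71786886-71858427), stood at 3.49 and 4.32 per 10000 in the basal cells of plate 2 libraries 2 and 4 and at 2.57 and 2.41 in those of plate 1. Luminal cells had 0.695 and 0.416 in plate 2 libraries 1 and 3, and 0 and 0.821 in the same libraries of plate 1. Every basal sum lay above every luminal sum. The means were 3.20 ± 0.886 in basal and 0.483 ± 0.364 in luminal cells (SD, n = 4 each), a log2 change of 2.66 ± 0.49 (SE; edgeR adjusted p = 0.00188). On plate 2 alone the change was 2.86 (edgeR adjusted p = 0.0031), and on plate 1 alone it was 2.34 and missed the threshold (edgeR adjusted p = 0.214). Between the luminal classes Itga6 was too low to test, with 18 transcripts in all hormone-sensing cells and 16 in all secretory cells. The highest luminal value, 4.04 in the secretory cells of plate 2 library 1, was 5 transcripts of a sum of 12378, all in 1 of 3 cells.

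Itgb1, the beta 1 chain shared by many integrins (chr8:128685654-128733579), was present in every basal and every luminal sum. Basal cells had 6.34 and 5.94 per 10000 on plate 2 and 6.14 and 4.83 on plate 1, and luminal cells 2.84 and 2.86 on plate 2 and 3.17 and 2.57 on plate 1. The groups did not overlap. The means were 5.81 ± 0.675 in basal and 2.86 ± 0.244 in luminal cells (SD, n = 4 each), a log2 change of 1.03 ± 0.23 (SE; edgeR adjusted p = 0.00775). The change was 1.14 on plate 2 alone (edgeR adjusted p = 0.019) and 0.90 on plate 1 alone (edgeR adjusted p = 0.426).

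Itgb4, the partner of alpha 6 in the hemidesmosome (chr11:115974725-116008412), did not differ between the classes beyond its spread. Basal cells had 0.239 and 0.0853 per 10000 on plate 2 and 2.14 and 1.06 on plate 1, against 0.821 and 0.676 on plate 2 and 0.594 and 0.821 on plate 1 in luminal cells. Both plate 2 basal sums lay below all luminal sums and both plate 1 basal sums above them. The pooled change was -0.27 ± 0.75 (log2, SE; edgeR adjusted p = 0.874), that on plate 2 alone -2.04 (edgeR adjusted p = 0.0450) and that on plate 1 alone 1.08 (edgeR adjusted p = 0.498). The difference between the plates' changes was -3.14 ± 0.87 (log2, SE), and 0 of 5023 genes passed the adjusted threshold for that difference (221 had an unadjusted p under 0.05). In plate 1 library 2, 14 of the 15 basal Itgb4 transcripts lay in the 1 cell led by the fibroblast list, and without that cell the level there was 0.177. In plate 1 library 4, 7 of 11 lay in another cell, and the level without it was 0.535. The gene thus rested on 43 transcripts in all basal cells and 47 in all luminal cells.

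Itga3, the laminin-binding alpha 3 chain (chr11:95044475-95076844), stood at 2.01 and 1.88 per 10000 in basal cells of plate 2 and at 0.143 and 2.51 in those of plate 1. Luminal cells had 0.947 and 0.676 on plate 2 and 0.0990 and 0.383 on plate 1. Basal sums lay above all luminal sums except in plate 1 library 2, which held 1 transcript. The change was 1.64 ± 0.56 (log2, SE) and missed the threshold (edgeR adjusted p = 0.0723), but passed it without plate 1 library 2 (1.93, edgeR adjusted p = 0.00688) and with the cells led by other types set aside (1.93, edgeR adjusted p = 0.00703). It also passed on plate 2 alone (1.30, edgeR adjusted p = 0.0384), without the filter on low counts (1.67, edgeR adjusted p = 0.00802) and without plate 2 library 1 (1.98, edgeR adjusted p = 0.0495). Itga2, the collagen-binding alpha 2 chain (chr13:114833081-114932100), was near its limit of detection, with 9 transcripts in all basal cells and 10 in all luminal cells and 0 to 0.312 per 10000 in every basal and luminal sum.

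Dst (chr1:33907888-34308662) had 795 transcripts in basal cells and 202 in luminal cells. Its level was 6.17 and 9.95 per 10000 in basal cells of plate 2 and 5.14 and 4.54 in those of plate 1. Luminal cells had 4.48 and 3.79 on plate 2 and 0.990 and 2.63 on plate 1. The lowest basal sum stood just above the highest luminal one. With the cells led by other types set aside, plate 1 basal levels were 3.51 in library 2 (3 cells) and 4.46 in library 4 (5 cells). Both then lay below the highest luminal sum of 4.48. With all cells, the change of 1.12 ± 0.39 (log2, SE) missed the threshold (edgeR adjusted p = 0.0734). It passed with plate as a term in the model (1.14, edgeR adjusted p = 0.0267). It also passed without the filter on low counts (1.14, edgeR adjusted p = 0.024) and without plate 2 library 1 (1.33, edgeR adjusted p = 0.0468).

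Col17a1 (chr19:47646341-47692042) had 327 transcripts in basal cells and 0 in luminal cells, at least 61.6-fold higher in basal cells when the luminal class is set at a floor of 3 transcripts. Basal cells had 3.39 and 2.93 per 10000 on plate 2 and 0 and 2.41 on plate 1. Of the basal cells, 27 of 31 and 16 of 18 on plate 2 held a Col17a1 transcript, and 0 of 8 and 4 of 7 on plate 1. The library at 0 was plate 1 library 2, and its 3 cells led by epithelial lists also had 0. No transcript was seen in 42 luminal cells, which allows up to 7.14% of cells with a transcript at this depth and sets no limit on cells that express the gene below detection. With plate 1 library 2 left out the gene passed the filter on low counts and the test (edgeR adjusted p = 3.9e-05).

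Cd24a, a small glycoprotein anchored to the membrane by a lipid (chr10:43579169-43584265), had the opposite order. Basal cells had 3.97 and 5.34 per 10000 on plate 2 and 2.71 and 1.83 on plate 1, against 40.2 and 10.3 on plate 2 and 13.0 and 17.7 on plate 1 in luminal cells. The groups did not overlap, and luminal libraries differed among themselves by more than all basal libraries did. The means were 3.47 ± 1.53 in basal and 20.3 ± 13.6 in luminal cells (SD, n = 4 each), a log2 change of -2.49 ± 0.43 (SE; edgeR adjusted p = 0.00129). On plate 2 alone the change was -2.39 (edgeR adjusted p = 0.025) and on plate 1 alone -2.79 (edgeR adjusted p = 0.015). In plate 1 library 2, 18 of 19 basal transcripts lay in 1 cell, and in the highest luminal library, plate 2 library 1, 351 of 637 lay in 1 hormone-sensing cell. The luminal level there was 23.5 without that cell, still the highest of the 8 sums.

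Cd44, a receptor for hyaluronan (chr2:102811141-102901669), did not differ between basal and luminal cells beyond its spread. Basal cells had 3.17 and 2.36 per 10000 on plate 2 and 0.428 and 3.19 on plate 1, and luminal cells 0.505 and 1.82 on plate 2 and 1.39 and 3.17 on plate 1. The ranges overlapped almost wholly, and the change was 0.44 ± 0.52 (log2, SE; edgeR adjusted p = 0.664). Without plate 1 library 2 the basal over luminal changes were 2.75 for Itga6, 1.02 for Itgb1 and -2.38 for Cd24a, all still past the threshold, and -1.15 for Itgb4, 0.73 for Cd44 and 1.23 for Dst, which were not (log2; edgeR adjusted p = 0.268, 0.305 and 0.0552 in that order).

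**Figure D2:**
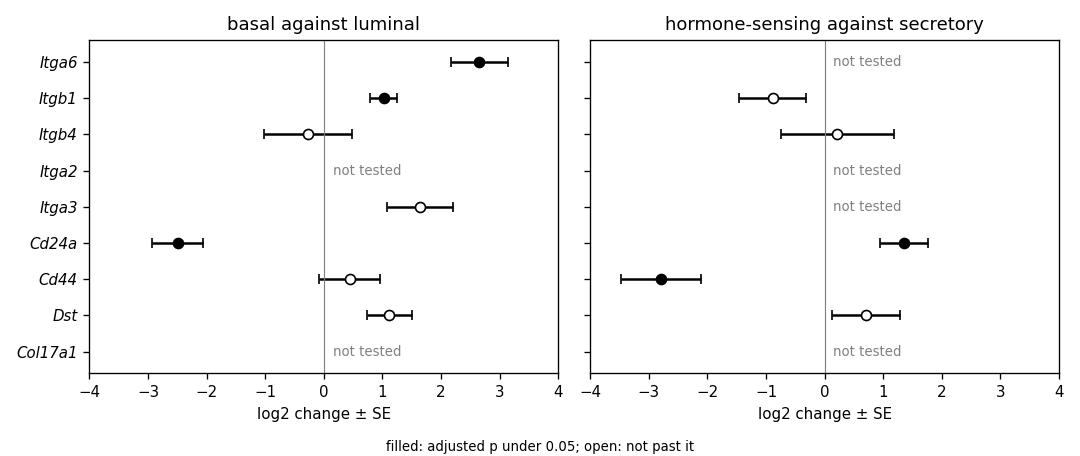
Log2 change of each gene, with its SE, between basal and luminal cells (left) and between hormone-sensing and secretory cells (right), from edgeR on library sums. Filled points passed an adjusted p under 0.05: Itga6, Itgb1 and Cd24a on the left, Cd24a and Cd44 on the right.

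Within the luminal cells, Cd24a was higher and Cd44 lower in hormone-sensing than in secretory cells, and these were the 2 of 5 tested genes that passed. Both classes occurred in the same 3 libraries with at least 3 cells of each, so the library was a block in the fit. The p-values of this fit rest almost wholly on a spread shared over genes, not on a gene's own scatter over 3 pairs. Of 2453 genes tested, 11.9% passed, 5.06% higher and 6.89% lower in hormone-sensing cells. The median change over all tested genes was 0.11 (log2), and without TMM scaling it was 0.34, with 187 genes higher and 165 lower in place of 124 and 169, so a change is read against that shift. Cd24a stood at 24.6, 42.4 and 15.6 per 10000 in hormone-sensing cells of plate 1 library 3, plate 2 library 1 and plate 2 library 3, against 7.82, 14.5 and 6.66 in secretory cells of the same libraries. Each library had the higher level in its hormone-sensing cells, and the change was 1.35 ± 0.41 (log2, SE; edgeR adjusted p = 0.0100). A few cells carried these levels. In the same order of libraries, 190 of 264, 351 of 619 and 100 of 122 hormone-sensing transcripts lay in 1 cell, and 17 of 18 secretory transcripts of plate 2 library 1 lay in 1 cell. Without the top cell of each sum, hormone-sensing cells had 11.9, 24.6 and 6.71 per 10000 and secretory cells 7.40, 1.80 and 7.38, so plate 2 library 3 no longer had the higher level in hormone-sensing cells.

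Cd44 ran the other way, at 0.745, 0.411 and 0.510 per 10000 in hormone-sensing cells and 6.63, 1.62 and 2.72 in secretory cells of the same 3 libraries. All 3 libraries had the lower level in hormone-sensing cells, and secretory cells of the remaining library, plate 1 library 1, had 1.37. The change was -2.80 ± 0.68 (log2, SE; edgeR adjusted p = 0.00071). It rested on 18 transcripts in the 3 hormone-sensing sums and on 2 in the secretory sum of plate 2 library 1, where 3 cells gave 12378 transcripts in all. With plate 2 library 1 left out, the change was -3.05 (edgeR adjusted p = 0.0589) for Cd44 and 1.22 for Cd24a (edgeR adjusted p = 0.0953). With plate 1 library 3 left out it was -2.25 (edgeR adjusted p = 0.367) for Cd44 and 1.37 for Cd24a (edgeR adjusted p = 0.176). Both passed without plate 2 library 3.

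The integrins gave no call between the luminal classes. Itgb1 stood at 1.86, 2.67 and 2.30 per 10000 in hormone-sensing cells and 3.58, 4.85 and 3.24 in secretory cells of the same libraries, lower in hormone-sensing cells in all 3, with a change of -0.89 ± 0.57 (log2, SE; edgeR adjusted p = 0.41). Itgb4 had a change of 0.22 ± 0.97 (edgeR adjusted p = 0.958) and Dst one of 0.70 ± 0.58 (edgeR adjusted p = 0.573), both log2 with SE. Itga6, Itga2 and Itga3 were too low to be tested, and Col17a1 had 0 transcripts in both classes.

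Plate is the only group the labels give, and none of the 8 of these genes that could be tested passed between plates. With class as a term, 0 of 4147 genes passed in edgeR (0.00%; 228 had an unadjusted p under 0.05). DESeq2 called 3 genes, and 1 passed with the library number as a block. Changes of plate 2 over plate 1 were 0.46 for Itga6, 0.06 for Itgb1, 0.85 for Itga3, 0.84 for Cd24a, -0.21 for Cd44, 0.91 for Dst, 1.25 for Col17a1 and -1.54 for Itgb4 on the log2 scale. That of Itgb4 had an edgeR adjusted p of 0.836. Leaving out library 4 of plate 1 gave 6.88 for Col17a1 and 2.13 for Itga3, and leaving out library 2 of that plate gave 0.45 and 0.46, with no call for either gene.

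How far Itga6 and Cd24a, as transcripts, part single basal from single luminal cells was then measured. Each cell was thinned at random to 1500 transcripts so that depth was equal, and the area under the curve (AUC) was taken, the share of basal and luminal cell pairs in which the basal cell holds more, with ties shared equally. It is 0.5 for no separation. Cells of a library share their source, so these values are descriptions. Itga6 had an AUC of 0.661 and Cd24a one of 0.268, meaning that luminal cells held more. The difference of Itga6 minus Cd24a had an AUC of 0.792, farther from 0.5 than either gene. Among the 3412 genes tested between the classes, 84 had an AUC as high as Itga6 or higher, itself included, and 16 one as low as Cd24a or lower. The middle 95% of genes ran from 0.367 to 0.659.

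With all transcripts in place of the thinned ones the AUC was 0.839 for Itga6 and 0.857 for the difference, and was 0.314 for Cd24a. As levels per 10000 of each cell, a form added after seeing the data, the values were 0.863 for Itga6, 0.181 for Cd24a and 0.916 for the difference. Thinned on plate 2 alone, the difference had an AUC of 0.768, and on plate 1 alone 0.888. Itga6 taken alone had 0.700 on plate 2 and 0.575 on plate 1. All 8 basal cells led by other types were among the 16 basal cells of plate 1. With the cells led by other types set aside on both plates, thinned AUCs were 0.777 for the difference, 0.668 for Itga6 and 0.288 for Cd24a. With all cells kept, the difference had 0.892 against hormone-sensing cells and 0.742 against secretory cells. The other genes had thinned AUCs of 0.667 for Col17a1, 0.665 for Dst, 0.621 for Itgb1, 0.573 for Itga3, 0.496 for Itga2, 0.483 for Itgb4 and 0.436 for Cd44. A second random draw, added after seeing the data, gave 0.687 for Itga6, 0.294 for Cd24a, 0.798 for their difference, 0.502 for Itgb4 and 0.503 for Cd44, and unthinned Cd44 had 0.559, so the side of 0.5 on which Itgb4 and Cd44 fell was not fixed.

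Few transcripts stood behind each cell. At 1500 transcripts, 24 of 66 basal cells held Itga6 (36.4%, exact binomial 95% interval 24.9 to 49.1) and 2 of 42 luminal cells did (4.76%, 0.582 to 16.2). Cd24a was held by 23 basal cells (34.8%, 23.5 to 47.6) and 30 luminal cells (71.4%, 55.4 to 84.3). Placed by the larger of the pair, 20 of 66 basal cells had more Itga6 (30.3%, 19.6 to 42.9) and 30 of 42 luminal cells had more Cd24a (71.4%, 55.4 to 84.3). Of the other basal cells, 28 had equal numbers and 18 had more Cd24a, and in plate 2 library 4 3 of 18 basal cells had more Itga6 while 8 had more Cd24a. The other 12 luminal cells had equal numbers. In the second draw the shares were 27.3% of basal cells and 66.7% of luminal cells. Unthinned, they were 47.0% of basal cells (34.6 to 59.7) and 95.2% of luminal cells (83.8 to 99.4). Unthinned, 46 of 66 basal cells held both, 10 Itga6 alone, 6 Cd24a alone and 4 neither, and of the luminal cells 25 held Cd24a alone, 15 both and 2 neither. At 1500 transcripts 5 basal cells held both (7.58%, 2.51 to 16.8), 19 Itga6 alone, 18 Cd24a alone and 24 neither, and of the luminal cells 28 held Cd24a alone, 2 both and 12 neither. A luminal cell with Itga6 and no Cd24a was not seen, 0 of 42. The exact binomial 95% interval allows up to 8.41% of cells with that pattern of transcripts at this depth. These intervals cover counting error only.

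**Figure D3:**
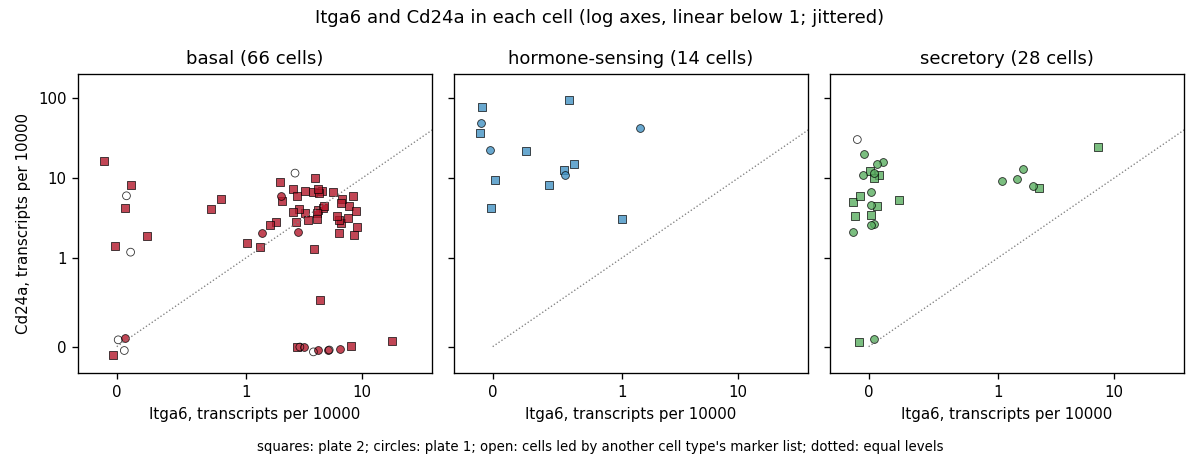
Cd24a against Itga6 in each of 66 basal, 14 hormone-sensing and 28 secretory cells, in transcripts per 10000 of the cell (log axes, linear below 1; open points, cells led by another cell type's marker list). Basal cells lie on both sides of the line of equal levels, and all 14 hormone-sensing cells lie above it.

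Libraries, whose animals are not given, were the units of the next comparison. Over them, the level of Itga6 was 2.72 per 10000 higher and that of Cd24a 16.8 lower in basal than in luminal cells. Each had a two-sided exact permutation p of 0.0286 for 4 against 4 libraries, the smallest such a design can give. With the cells led by other types set aside, 3 basal libraries of at least 5 cells remained, and the differences were 2.97 and -16.4 (exact permutation p = 0.0571 each, the smallest possible there).

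Transcripts were also counted in wells with nearly no RNA, which may hold RNA from outside the cell. Whether such wells held a damaged cell was not tested. The 579 wells under 500 transcripts had a median of 107 transcripts. In libraries 2 and 4, which held the basal cells, such wells had 0.102 Cd24a transcripts each on average, against 7.15 in a basal cell, at median depths of 117 and 13450.5 transcripts. A transcript of Cd24a was found in 8.77% of those wells and in 78.8% of basal cells. Relative to depth the order turned, with 6.72 per 10000 in the near-empty wells and 4.20 in basal cells. Itga6 was found at 0.0246 per near-empty well in libraries 2 and 4, against 6.09 in a basal cell, and had 0 transcripts in those of libraries 1 and 3, against 0.810 in a luminal cell. Relative to depth that was 1.62 per 10000 in the near-empty wells of libraries 2 and 4 and 3.58 in basal cells. Cd24a stood at 22.7 per 10000 in the near-empty wells of libraries 1 and 3 and at 20.3 in luminal cells. Near-empty wells of libraries 2 and 4 and of libraries 1 and 3 had 6.72 and 4.24 for Itgb1, and 3.48 and 2.99 for Dst. In that order, Itga3 had 1.62 and 0.249 (7 and 1 transcripts) and Col17a1 1.39 and 0 (6 and 0 transcripts). Cd44 had 2.55 and 1.75, and Itgb4 and Itga2 each 0 and 0.499 (0 and 2 transcripts). The part of free RNA in the levels of basal and luminal cells was not tested.

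**Figure D4:**
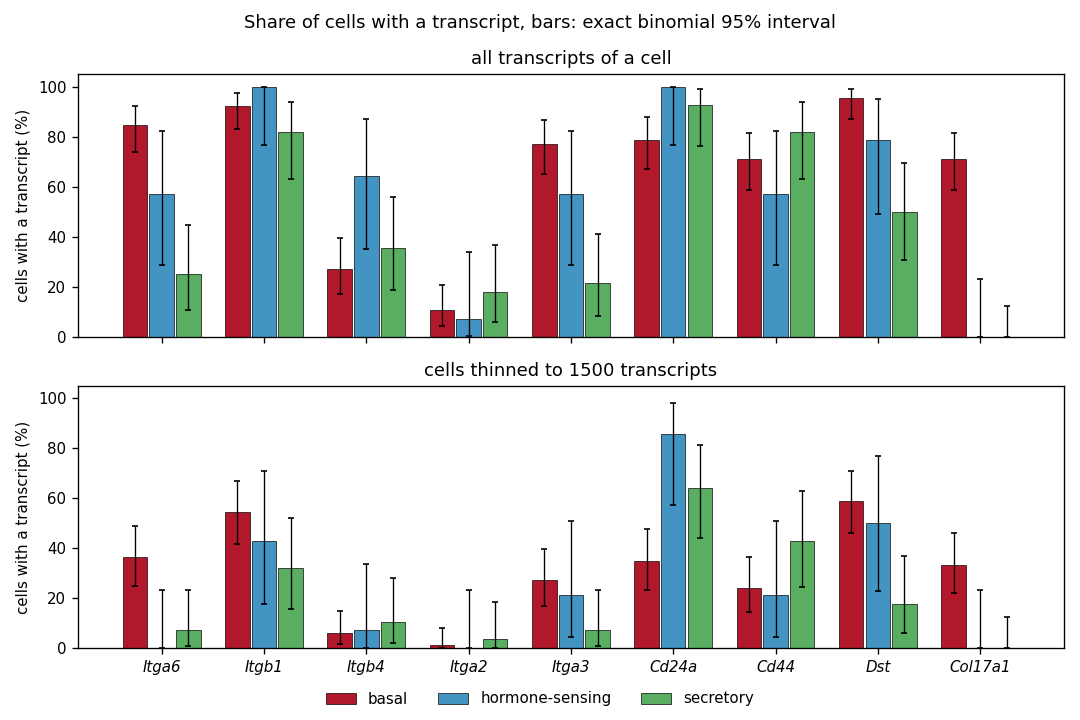
Share of basal, hormone-sensing and secretory cells with at least 1 transcript of each gene (%), for all transcripts (top) and for cells thinned to 1500 transcripts (bottom); bars, exact binomial 95% intervals. Col17a1 was found in 71.2% of basal cells and in 0 luminal cells, and thinning lowered the Itga6 share of basal cells to 36.4%, against 84.8% unthinned.

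Genes that work beside these 9 were counted by list, each list chosen with earlier results in view, and the counts with a library or other-type cells left out were added after seeing the data. Over all 3412 genes tested, 8.0% were higher and 6.57% lower in basal cells. Without plate 1 library 2, 425 of 4241 genes were higher and 415 lower. With other-type cells set aside and sums of at least 3 cells, 282 of 3436 were higher and 261 lower. Of 9 laminin, collagen and fibronectin ligands tested, 7 were higher and 1 lower in basal than in luminal cells, with a median change of 4.96 (log2; 4.54 with the gene at 0 in luminal cells set at its bound), against 0.00 over all 3412 genes. The 3 called ligands with the largest changes were all higher, and the 1 lower one is not named here. Col4a1 and Col4a2, the chains of the main basement membrane collagen, had 2882 and 1619 transcripts in basal sums and 2 each in luminal sums. Nid1, which links laminin to that collagen, had 122 and 0. The marker lists of other cell types also reached higher values in basal sums, up to 14.1 per 10000 for fibroblasts, 12.8 for endothelial cells and 31.0 for adipocytes, against at most 0.364, 0.198 and 0.495 in luminal sums. These peaks were in plate 1 library 2, and without that library 10 of 12 tested ligands were higher and 0 lower, with 2819 Col4a1, 1562 Col4a2 and 110 Nid1 transcripts left in basal sums. With the other-type cells of every library set aside and basal sums of at least 3 cells, 6 of 8 were higher and 1 lower. The part of RNA from other cell types in the full counts was not tested further. In the adhesion plaque list, 10 of 16 were higher and 0 lower, with a median of 1.54. Flna, an actin crosslinker, had a change of 2.88, and Fermt1 and Fermt2, the kindlins that switch integrins on, had changes of 2.24 and 2.00 (log2; edgeR adjusted p = 0.00422, 0.00247 and 0.00152 in that order). Actn4, an actinin, had 0.10 (edgeR adjusted p = 0.91). Without plate 1 library 2, 11 of 17 adhesion plaque genes were higher and 0 lower.

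Of 5 hemidesmosome and anchoring genes tested, 3 were higher and 0 lower in basal cells, with a median of 1.63. Krt5 and Krt14, the basal keratins that hemidesmosomes anchor, had 610 and 316 transcripts in basal sums and 0 in luminal sums, and Dsp, a desmosome plaque protein, had a change of 1.63 ± 0.33. Plec, plectin, which links alpha 6 beta 4 to keratin, had 0.55 ± 0.31 (edgeR adjusted p = 0.298), and Cd151, a tetraspanin partner of alpha 3 and alpha 6 integrins, 0.01 ± 0.33 (edgeR adjusted p = 0.991; log2 with SE). The other integrin subunits had 3 tested and 0 called, where 14.6% of all 3412 genes were called. Itgav had a change of 1.08 ± 0.38 (edgeR adjusted p = 0.0768) and Itga8 one of 0.23 ± 0.55 (edgeR adjusted p = 0.851). Among genes linked to CD44, 1 of 5 was higher and 2 lower in basal cells. Vcan, a proteoglycan that binds hyaluronan, had 667 transcripts in basal sums and 1 in luminal sums, Spp1, osteopontin, a secreted ligand of CD44 and integrins, 0 and 1083, and Ezr, the actin linker ezrin, 206 and 457 (edgeR adjusted p = 0.000156). Without plate 1 library 2 the counts of the hemidesmosome and anchoring, other integrin and CD44-linked lists were the same as with it, and 649 Vcan transcripts were left.

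Of 6 other markers used to sort mammary cells, 0 were higher and 4 lower in basal cells, with a median of -2.92 (log2). Cd14 had 2 transcripts in basal sums and 155 in luminal sums. Kit had a change of -4.08 ± 0.76 (edgeR adjusted p = 0.00207) and Epcam one of -3.20 ± 0.32 (edgeR adjusted p = 2.17e-05), both log2 with SE. Ly6a at -2.65 ± 0.98 (edgeR adjusted p = 0.0970) and Cd9 at -0.53 ± 0.28 (edgeR adjusted p = 0.263) did not pass. Without plate 1 library 2, 6 of 7 were lower, against 415 of all 4241 genes tested, and Ly6a then passed at -4.20 (edgeR adjusted p = 0.00568). Between hormone-sensing and secretory cells 8 of these markers were tested, 2 higher and 4 lower, against 5.06% and 6.89% of all genes. Without plate 2 library 1, 0 of 6 passed, but only 9 of all 1984 genes passed in that fit. Without plate 2 library 3, 3 of 7 passed (136 of all 1959 genes), and without plate 1 library 3, 4 of 7 (117 of all 2032 genes). In the full fit, the 3 called markers with the largest changes were all lower, and the 2 higher ones are not named here. Kit had 1 transcript in hormone-sensing sums and 136 in secretory sums, Aldh1a3 0 and 26, and Cd14 11 and 106. Epcam had a change of -0.23 ± 0.47 (log2, SE; edgeR adjusted p = 0.866). In the same comparison Spp1 had 22 transcripts in hormone-sensing sums and 956 in secretory sums, where Cd44 was also the higher, Itga8 had 0 and 32, and Lama5, a laminin chain, 123 and 10. Spp1 passed with each of the 3 libraries left out in turn, and Itga8 and Lama5 passed in none of these fits. There, 0 of 9 adhesion plaque genes and 0 of 3 hemidesmosome and anchoring genes, Dsp among them, passed, against 11.9% of all 2453 genes tested. With so few genes, 0 is near that share.

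Across the 11 sums of basal, hormone-sensing and secretory cells with at least 3 cells, genes with a pattern most like Itga6 included Actn1, an actinin (Spearman 0.900), and Dync1li2, a dynein chain (0.891). Those most like Cd24a were Tmprss2, a membrane protease (0.963), Psme1 (0.936) and Gata3, a luminal transcription factor (0.936). These sums share libraries and are few, so the values describe the pattern only.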

How the data were processed

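The authors deposited 1 table of expected counts, that is estimated transcript molecules per gene and well, with 14883 gene lines and 81 spike-in lines over 768 wells. The submitters' processing notes name BWA 0.6.2-r126 and the build mm10, without their role. The values follow the correction for molecules that share a tag from a pool of 256, a scale that 533073 of the 533078 nonzero entries matched within 1e-06. No further filter of the authors is stated in the sources used here.

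Entries were rounded to whole transcripts, without the spike-ins. Library totals ran from 101158 to 598625 transcripts, which limits the precision of the low genes. No doublet caller was run. At least 10 transcripts of both class sums were found in 5 basal cells and 1 luminal cell. No 2 kept cells had the same values. Transcripts were summed per library and class (at least 5 cells, or 3 for the luminal classes) and tested with edgeR 4.0.16 in R 4.3.3 (TMM, filterByExpr, quasi-likelihood, Benjamini-Hochberg over all genes tested), leaving the 8 genes that made the classes out of counts of called genes. DESeq2 1.42.0 was an alternative. The SE, the log2 change divided by the root of F, is approximate. Thinning used seed 1. Fold bounds use a floor of 3 transcripts over the class. The test was first tried on simulated counts with the same spread for every gene, and the outcome is not reported here. That trial cannot show how the test does for genes whose spread is uneven or rests on few cells. All 9 genes were named, with up to 3 called and 2 other genes per list. Some genes that this rule names are not reported here. The 9 genes, the lists and the rules were chosen with earlier results of these data known.

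Libraries with the same number on both plates deviated from their plate's mean together, with correlations of 0.33, 0.43, 0.60 and 0.65 for numbers 1 to 4. Within a class these were -0.17 (luminal) and -0.02 (basal), and libraries 2 and 4 held the basal cells on both plates. The number was used as a block in the plate comparison as an alternative.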

Additional observations from a re-analysis of the deposited data

Results flagged for a closer look

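Of 25 groups of 4 or more libraries looked at for a library apart from the others, 1 stood out, where chance gives about 1 in 20. It was Dst in secretory cells, at 9.69 transcripts per 10000 in plate 2 library 1, against 1.05 to 1.75 in the other 3 libraries. That sum held 12 Dst transcripts of 12378, and 10 of them lay in 1 cell of 6808 transcripts, without which the level was 3.59.

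Transcripts of the genes were also seen outside the classed cells. In the 579 wells under 500 transcripts there were 120 of Cd24a, 46 of Itgb1, 27 of Dst, 18 of Cd44, 8 of Itga3, 7 of Itga6 and 6 of Col17a1. In the 75 wells with 500 or more transcripts that were not kept there were 126 of Cd24a, 26 of Dst, 23 of Itgb1, 11 of Cd44, 9 of Itga3, 6 of Itga6 and 6 of Col17a1. The 6 unassigned cells held 15 of Cd24a, 13 of Itgb1, 13 of Dst, 12 of Cd44, 8 of Itgb4 and 5 of Itga6. All 6 were led by the marker list of another cell type. Of their Cd24a transcripts, 13 lay in 1 cell led by the macrophage or dendritic list. Of their Itgb4 transcripts, 6 lay in the cell led by the fibroblast list and 2 in that led by the nerve or Schwann list.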

How the results depend on the processing

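The basal and luminal calls of Itga6, Itgb1 and Cd24a kept their direction in every setting run, and all 3 passed in each, apart from Itga6 and Itgb1 on plate 1 alone. Among these settings, a class margin of 2 times and a minimum of 3 cells left the sums as they were, so they could not change a call. The count of 497 called genes was 1503 without the filter on low counts, 931 on plate 2 alone, 155 on plate 1 alone, 827 with cells led by other types set aside, and 428 to 840 with 1 library left out (840 without plate 1 library 2, 753 without plate 1 library 1). Itgb4 turned to 0.13 in DESeq2 and 1.08 on plate 1 alone, and ran from -1.15 to 0.37 with 1 library left out, positive at 0.30 and 0.37 without plate 2 library 2 or 4. Cd44 turned to -0.33 on plate 1 alone. The cause was not tested.

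Between hormone-sensing and secretory cells 293 genes became 182 with no replicate block and a minimum of 5 cells, and 9 to 136 with 1 library left out (9 without plate 2 library 1, 117 without plate 1 library 3). Without the low-count filter Cd24a was 1.58 (edgeR adjusted p = 0.212) and Cd44 -2.57 (edgeR adjusted p = 0.062), and with at least 5 cells Cd44 was -3.25 (edgeR adjusted p = 0.106). Without a replicate block 226 genes were called. Between plates, the replicate block gave 1 call, DESeq2 3, no filter 129 and 1 library left out 0 to 5. There Itgb1 ran from -0.0008011 to 0.20 and Cd44 from -0.64 to 0.27 (turning to 0.0051, 0.20 and 0.27). The block changed no call of the 9 genes between plates.

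The AUC of Itga6 was 0.839 unthinned, 0.752 at 3000 transcripts and 0.863 per 10000 (added after seeing the data), and 0.605 to 0.685 with 1 library left out. For Cd24a that range was 0.233 to 0.288. The placed share was 47.0% of basal cells unthinned or per 10000, and 95.2% of luminal cells so and 86.5% at 3000, with leave-one-out ranges of 20.0 to 35.4% and 68.8 to 76.7%. The level differences were 2.34 to 2.98 for Itga6 and -20.2 to -10.2 for Cd24a with 1 library left out, and 2.97 and -16.4 with other-type cells set aside, where the exact permutation p cannot fall under 0.0571.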
